A study of Mus musculus with 3 samples.

Results

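Ccl2, Ccl7, Ccl8 and Ccl12 encode chemokines grouped here as monocyte-attracting ligands of the receptor encoded by Ccr2. These 5 genes, taken by their symbols out of the 19274 genes in the deposited single-cell tables, were followed here through the brain immune cells of mice with and without brain metastases. Which receptor mouse Ccl8 acts through was not tested. The chemokines are small secreted proteins, and Ccr2 is a G protein-coupled receptor on inflammatory monocytes, on subsets of T cells and on NK cells. Monocytes use it to leave the bone marrow and to enter inflamed tissue, whereas resident microglia carry little or none of it. Ccl12 has no direct human counterpart and is often called MCP-5, while Ccl2, Ccl7 and Ccl8 are also known as MCP-1, MCP-3 and MCP-2.

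All mice were C57Bl/6 females of 2 to 3 months, and all lacked at least 1 functional copy of Cx3cr1, the fractalkine receptor gene of microglia and monocytes, so that no wild-type mouse was among them. The 4 groups of 2 brains each were metastasis-bearing Cx3cr1-/-, metastasis-bearing Cx3cr1+/-, naive Cx3cr1-/- and naive Cx3cr1+/-. Metastases came from E0771 cells, a mouse mammary carcinoma line given by carotid injection about 2 weeks before. Cells of 1 hemisphere per mouse were enriched for immune cells on Percoll, stained with 35 tagged antibodies and 1 hashtag per brain, and pooled into 1 preparation, so the 8 brains recovered by their hashtags were the replicates.

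The 4 ligand genes lie on chromosome 11 and the receptor gene on chromosome 9 (GRCm38.p6, RefSeq). In the ligand cluster Ccl2 occupies 82035577 to 82037452 and Ccl7 follows after a gap of 8259 bases at 82045712 to 82047525. Ccl12 lies further along at 82101845 to 82103399, and Ccl8 at 82115185 to 82116799 after a gap of 11785 bases, with Ccl11, an eosinophil-attracting chemokine gene, between the pairs. Ccr2 occupies 124101918 to 124109140. Promoter sequences were available for 3 of the 5 genes. The 250 bases upstream of the starts of Ccl12 (chr11:82101595-82101844, plus strand) and Ccl8 (chr11:82114935-82115184, plus strand) are shown because these neighbouring genes differed in which cells carried their transcripts, with the motif TATAAA in capitals.
Ccl12: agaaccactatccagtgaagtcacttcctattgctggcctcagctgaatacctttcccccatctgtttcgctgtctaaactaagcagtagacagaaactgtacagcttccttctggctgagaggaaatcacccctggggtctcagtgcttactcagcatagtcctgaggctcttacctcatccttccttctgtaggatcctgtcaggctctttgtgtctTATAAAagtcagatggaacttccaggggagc
Ccl8: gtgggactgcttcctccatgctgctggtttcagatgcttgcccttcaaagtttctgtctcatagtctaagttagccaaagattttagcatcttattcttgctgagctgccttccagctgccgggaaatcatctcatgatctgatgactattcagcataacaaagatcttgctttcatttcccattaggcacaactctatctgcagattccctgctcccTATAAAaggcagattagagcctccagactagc
TATAAA, searched on both strands, stood 31 to 26 bases upstream of the start in Ccl12 and 32 to 27 bases upstream in Ccl8, and 12.4% of 32851 RefSeq promoter windows of that length held it. The Ccr2 window (chr9:124101933-124102182, plus strand) lies within the Ccr2 interval given above, so it is not upstream of that start. No other motif searched was found in the Ccl12, Ccl8 or Ccr2 windows on either strand. These were the AP-1 motif TGANTCA (present in 6.75% of all windows), the STAT motif TTCNNNGAA (7.02%), the C/EBP motif TTGCNNAA (9.56%), an NF-kB motif (1.41%), a looser NF-kB motif (45.8%) and the ISRE core (2.98%).

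After 1138 barcodes present in both the metastasis and the naive table had been left out, 8443 cells of metastasis-bearing brains and 2736 cells of naive brains remained. The metastasis-bearing Cx3cr1-/- brains gave 2925 and 1554 cells and the Cx3cr1+/- brains 1354 and 2610, while the naive Cx3cr1-/- brains gave 337 and 905 and the Cx3cr1+/- brains 957 and 537. Levels are corrected UMIs summed over the cells of a class in a brain, with at least 20 cells, and scaled to a total of 1000000 (CPM). The authors corrected UMIs for depth separately in the 2 tables, to a median of 12056 per cell of metastasis-bearing and 7205.5 per cell of naive brains, so levels are set side by side between states without a test. The authors' clusters were named from their markers. The 8 microglia markers summed to 11237 to 12593.5 CPM in metastasis-bearing microglia-like cells, against 597 to 1140.4 CPM in the monocyte/macrophage-like cells. The monocyte/macrophage markers other than Ccr2 summed to 22864 to 26437 CPM in the monocyte/macrophage-like cells and to 9464.9 to 12259 CPM in metastasis-bearing microglia-like cells. That list includes C1qa and Apoe, and it summed to 10042 to 10790 CPM in naive microglia-like cells too. Its gene Lyz2 was in metastasis-bearing microglia-like cells at 3.54% to 5.35% of the monocyte/macrophage-like level. No naive cluster could be called monocyte/macrophage-like, since neutrophil and monocyte genes led 1 cluster and macrophage and dendritic genes another; both are called mixes. Cx3cr1 bore out the genotype labels: in microglia-like cells it had 114 and 31.6 CPM in metastasis-bearing Cx3cr1-/- brains against 1363 and 1464 CPM in Cx3cr1+/- brains, and 75.6 and 71.4 CPM in naive Cx3cr1-/- brains against 1953 and 1852 CPM in Cx3cr1+/- brains.

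Ccl2 values in shallow cells of the metastasis table moved with raw depth, and the part of the depth correction in this was not tested. Of 117 T-like cells with 2000 to 3500 raw UMIs none was at 0 for Ccl2, and 88.0% held exactly 1 corrected UMI. Of 238 NK-like cells in that window none was at 0 either, and 92.4% held exactly 1. At 5000 to 7500 raw UMIs 93.0% of 445 T-like and 87.7% of 146 NK-like cells were at 0 for Ccl2. Ccl7 did not share the pattern, being at 0 in 94.9% of the shallow T-like cells and 96.6% of the shallow NK-like cells. Vascular-like cells of 2000 to 3500 raw UMIs held exactly 1 in 93.9% of 49 cells, and none was at 0. No Ccl2 level of the T-like, NK-like, B-like, neutrophil-like, vascular-like or low-UMI classes was therefore read as expression, and shares of cells with a Ccl2 UMI are given for deeper classes alone.

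**Figure D1:**
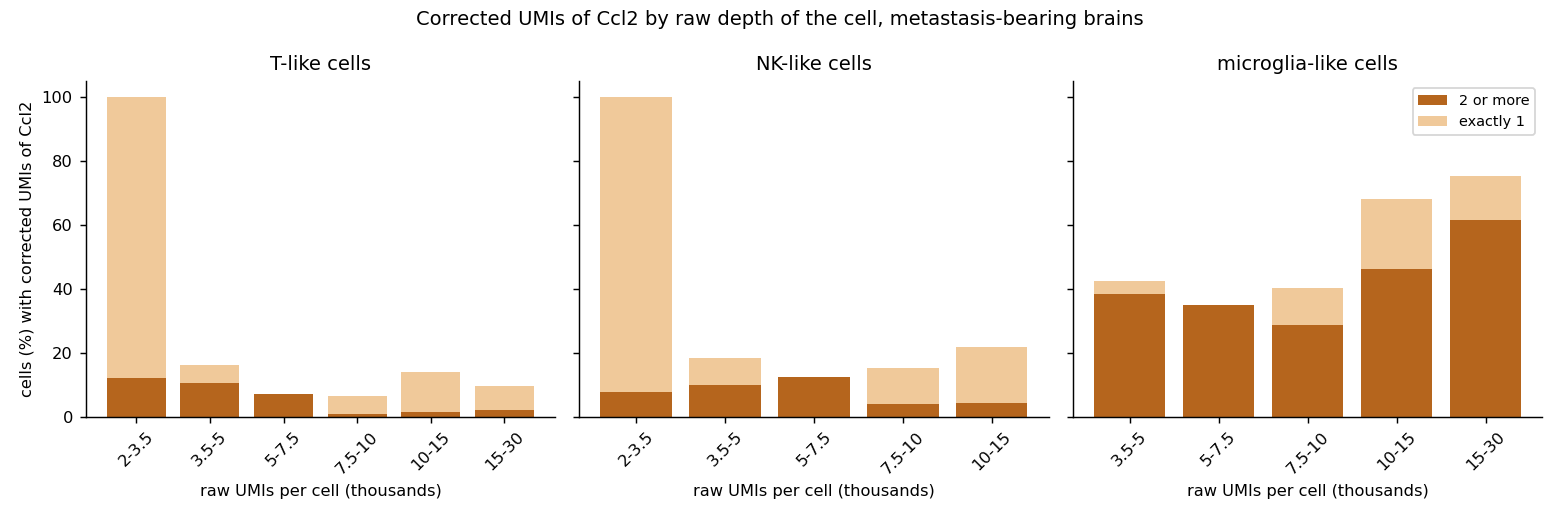
Percent of cells (vertical axis) with exactly 1 or with 2 or more corrected Ccl2 UMIs, by raw UMIs per cell (horizontal axis, bins), in metastasis-bearing T-like, NK-like and microglia-like cells. In the 2000 to 3500 bin every T-like and NK-like cell held at least 1, and 88.0% of the T-like cells held exactly 1.

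Monocyte/macrophage-like cells of metastasis-bearing brains carried all 5 transcripts. Ccl2 was the ligand with the highest CPM there, at 977 and 1248 CPM in Cx3cr1-/- brains and 1024 and 1269 CPM in Cx3cr1+/- brains (1129.8 ± 150.3 over all 4, SD). Microglia-like cells of the same brains had 1091 and 857 CPM of Ccl2 in Cx3cr1-/- brains against 372 and 639 CPM in Cx3cr1+/- brains (739.9 ± 307, n = 4), so the 2 classes overlapped. The keratin-expressing class, called Krt8-high after its leading gene and holding 2739 cells, was next with 238 ± 95.6 CPM (n = 4). These 3 classes kept 1152 ± 153, 757 ± 306 and 239 ± 98.5 CPM over cells of at least 5000 raw UMIs, in which T-like cells had 13.9 ± 7.21 CPM of Ccl2 (n = 4 each). In naive brains the neutrophil and monocyte mix had the highest Ccl2, at 1354 CPM in the Cx3cr1-/- brain with enough cells and 857 and 800.4 CPM in the Cx3cr1+/- brains, and every other naive class lay below these values. The next was the Krt8-high class at 306 ± 171 CPM (n = 3), with 125 cells under the hashtags of 3 naive brains. Brain medians in the mix were 39845 raw UMIs (Cx3cr1-/-) and 10209 and 25956 (Cx3cr1+/-), and those of naive Krt8-high cells were 107817.5 to 134135. The part of depth in these naive levels was not tested, nor was why keratin-expressing cells carried naive hashtags.

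Ccl12 was the ligand in which microglia-like cells led. Metastasis-bearing microglia-like cells had 1777 and 1738 CPM in Cx3cr1-/- brains and 589.8 and 1036 CPM in Cx3cr1+/- brains, against 570.2 and 394 CPM in Cx3cr1-/- and 365 and 454 CPM in Cx3cr1+/- monocyte/macrophage-like cells. The lowest microglia-like brain thus lay above the highest monocyte/macrophage-like brain, by 589.8 to 570.2 CPM, and these classes were not tested against each other. Every other class of these brains lay lower, the next being the low-UMI class with 50.7 ± 7.18 CPM, and Krt8-high cells were last with 3.61 ± 2.89 CPM (n = 4 each). In naive brains the neutrophil and monocyte mix had 795 ± 484 CPM (n = 3), the antigen-presenting mix 629 ± 426 CPM (n = 3) and microglia-like cells 349.7 ± 101 CPM (n = 4), and these 3 overlapped.

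Ccl7 was highest in monocyte/macrophage-like cells, with 269 and 308 CPM in Cx3cr1-/- brains and 368 and 401 CPM in Cx3cr1+/- brains (336 ± 59.3 over all 4). Every one of these values lay above the 71.3 ± 23.4 CPM of microglia-like and the 39.3 ± 6.62 CPM of Krt8-high cells (n = 4 each). Ccl8 was the rarest ligand of this class and its level differed most between brains. It had 9.80 and 46.9 CPM in Cx3cr1-/- brains and 16.0 and 126 CPM in Cx3cr1+/- brains, from 3.76% to 7.58% of the cells. In microglia-like cells Ccl8 lay between 0 and 6.45 CPM. In the naive neutrophil and monocyte mix Ccl7 was at 461 ± 161 CPM, and Ccl8 was at 57.9 CPM in the Cx3cr1-/- brain and 28.2 and 479 CPM in the Cx3cr1+/- brains. The metastasis-bearing cell with most Ccl8 held 234 corrected UMIs of it and came from Cx3cr1+/- brain 2, the brain with the highest level.

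**Figure D2:**
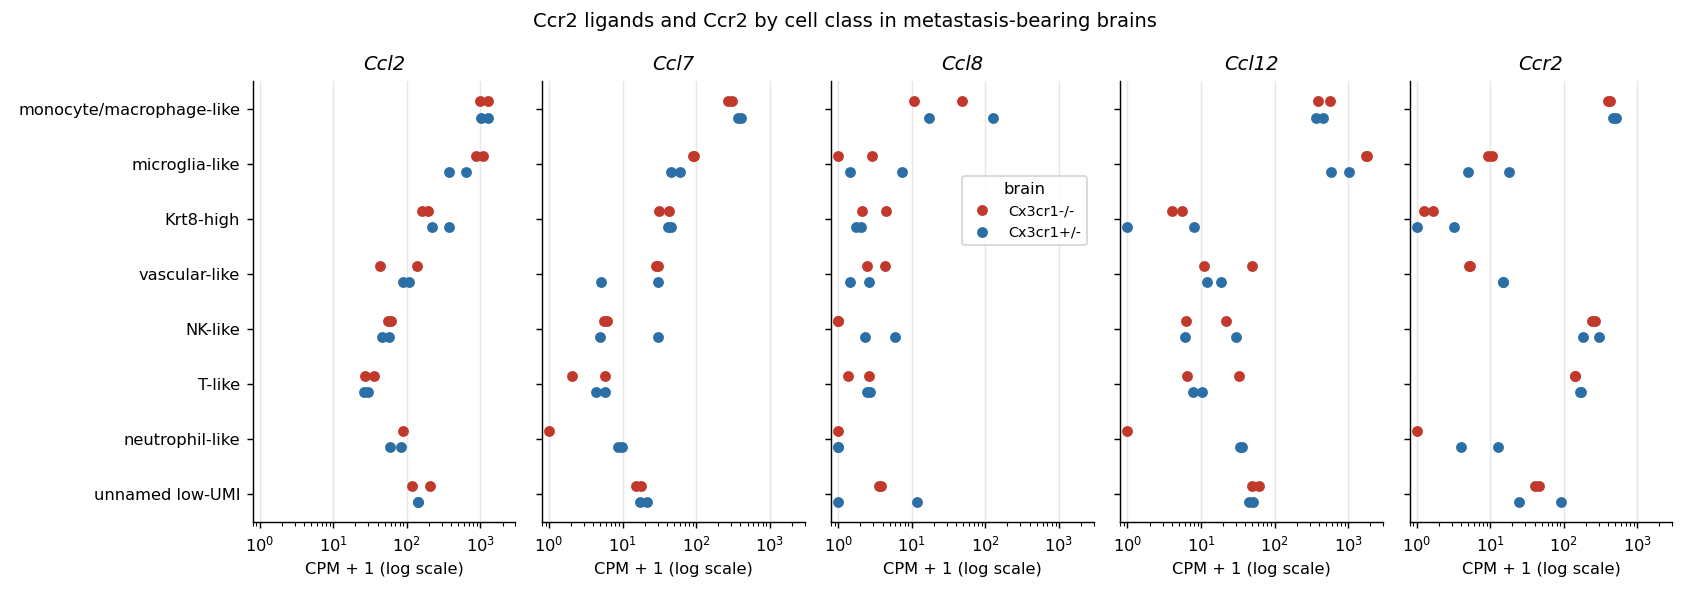
Level of each of the 5 genes (horizontal log axis, CPM + 1) in 8 classes of cells, 1 point per metastasis-bearing brain, with Cx3cr1-/- brains in red above Cx3cr1+/- brains in blue. Ccl12 peaks in metastasis-bearing microglia-like cells at 1777 CPM, and Ccr2 is at 3.96 to 17.0 CPM in microglia-like cells against 398 to 508 CPM in monocyte/macrophage-like cells.

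Krt8-high cells were also set against monocyte/macrophage-like cells of the same brain. Their level was 12.8% to 29.6% of the monocyte/macrophage level for Ccl2 and 9.68% to 15.6% for Ccl7, while it was 0.580% to 11.04% for Ccl8, 0% to 1.53% for Ccl12, 0% to 0.430% for Ccr2 and 0.0422% to 0.302% for the abundant myeloid gene Lyz2. The ranges of Ccl2 and Ccl7 lay above those of Ccl12, Ccr2 and Lyz2, and that of Ccl8 reached into the range of Ccl7. The part of free RNA in these levels was not tested. Krt8-high cells were also the deepest class, with class medians of 96635 to 116929 raw UMIs per cell against 10768 to 12590 in monocyte/macrophage-like cells.

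The share of a transcript pool that each class held followed both level and cell number. Averaged over the 4 metastasis-bearing brains, monocyte/macrophage-like cells were 20.9% of the cells and held 62.2% of the Ccl2, 74.9% of the Ccl7, 80.2% of the Ccl8, 54.9% of the Ccl12 and 70.1% of the Ccr2 UMIs. Microglia-like cells were 9.87% of the cells but held 40.2% of the Ccl12 UMIs, between 26.2% and 72.0% by brain, and 13.3% of the Ccl2 UMIs. The brain at 72.0% was Cx3cr1+/- brain 1, in which monocyte/macrophage-like cells held 24.4% of the Ccl12 UMIs. Krt8-high cells, 30.9% of the cells, held 17.5% of the Ccl2 and 14.8% of the Ccl7 UMIs. When each cell was weighted by its raw depth, an alternative added after seeing the data, Krt8-high cells held 52.8% of the Ccl2 UMIs and monocyte/macrophage-like cells 37.7%. The class holding most Ccl2 therefore depended on whether depth was corrected. Monocyte/macrophage-like cells led for Ccl7 (54.2%, against 39.9% in Krt8-high cells), Ccl12 (61.3%) and Ccr2 (83.8%) under that weighting too. In naive brains microglia-like cells, 44.5% of the cells, held 58.6% of the Ccl12 UMIs, and the neutrophil and monocyte mix held 34.7% of the Ccl2, 42.1% of the Ccl7 and 36.5% of the Ccr2 UMIs. These naive shares depended on the cells and weights taken. With all deposited cells the mix held 61.3% of the Ccl2, 67.8% of the Ccl7 and 58.4% of the Ccr2 UMIs and microglia-like cells 40.8% of the Ccl12 UMIs, and at raw depth 62.4% of the Ccr2 UMIs lay in the mix and 38.0% of the Ccl12 UMIs in microglia-like cells.

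**Figure D3:**
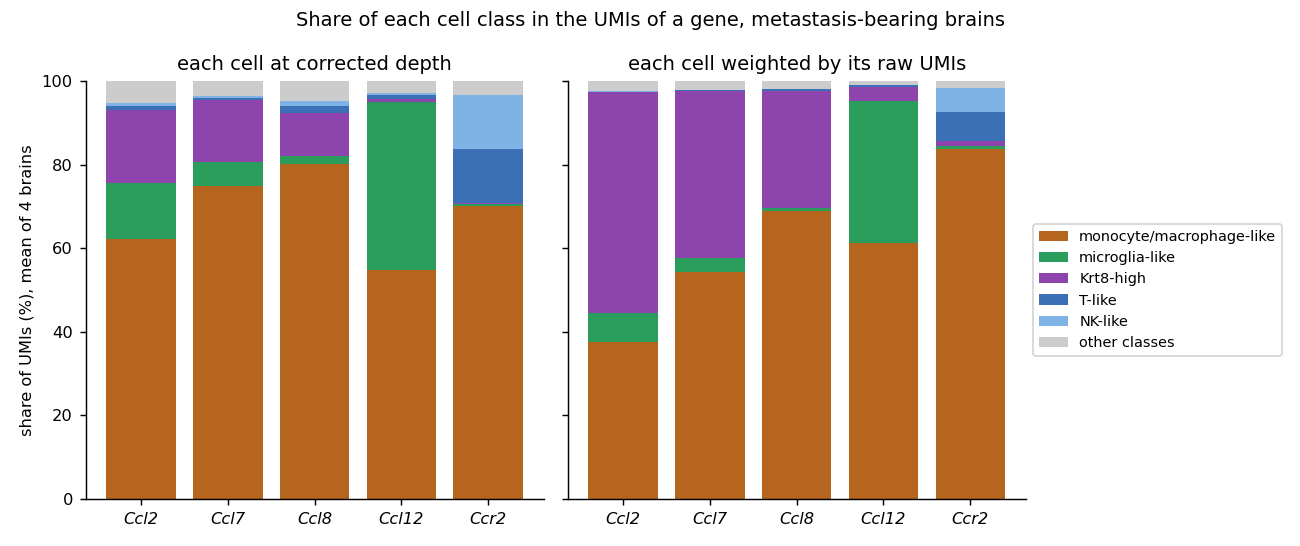
Percent of all UMIs of each gene (vertical axis) held by each class in metastasis-bearing brains, mean of 4 brains, with cells at corrected depth and weighted by raw depth side by side. The Krt8-high part of the Ccl2 bar is 17.5% at corrected depth and 52.8% at raw depth, while monocyte/macrophage-like cells hold 70.1% and 83.8% of Ccr2.

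Within the monocyte/macrophage-like class the ligand UMIs were concentrated in fewer cells than the receptor UMIs. The 10% of cells richest in Ccl2 held 53.5% to 67.0% of its UMIs by brain, and the 10% richest in Ccl12 or Ccl7 held 72.5% to 82.9% and 84.6% to 92.6% of theirs. For Ccr2 the richest 10% held 26.8% to 31.1%. A Ccr2 UMI was present in 82.3% to 87.1% of the cells, a Ccl2 UMI in 55.7% to 65.7%, a Ccl12 UMI in 33.0% to 44.3% and a Ccl7 UMI in 22.7% to 31.7%. Krt8-high cells, which are not expected to carry Ccr2, had a Ccr2 UMI in 0.66% of cells against 84.7% of monocyte/macrophage-like cells. With every cell thinned to 2000 corrected UMIs the shares were 0.15% and 50.2%, and no cell was too shallow to thin.

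Cells with one ligand transcript often had another. A Ccl12 UMI was present in 50.4% to 61.4% of monocyte/macrophage-like cells with a Ccl2 UMI, against 11.1% to 18.5% of those without one, and the ranges stayed apart at 5000 to 15000 raw UMIs (41.1% to 48.4% against 9.09% to 14.4%). Likewise a Ccl7 UMI was present in 35.4% to 43.0% of cells with a Ccl2 UMI, against 5.48% to 10.0% of those without (27.7% to 37.5% against 3.69% to 7.69% in the depth window). For Ccr2 the ranges overlapped, at 78.8% to 92.0% of cells with and 78.5% to 86.7% of cells without a Ccl2 UMI (84.1% to 91.8% against 76.0% to 90.9% in the depth window). Taken the other way in the depth window, a Ccl2 UMI was present in 53.0% to 59.0% of cells with a Ccr2 UMI, against 31.9% to 36.7% of those without, in 3 brains. In metastasis-bearing microglia-like cells the split by Ccl2 was narrower, with a Ccl12 UMI in 75.0% to 98.1% of cells with and 60.6% to 80.6% of cells without a Ccl2 UMI over the 3 brains with enough cells. These shares are descriptions over cells of the same libraries and were not tested.

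The receptor gene had another order of classes than its ligands. In metastasis-bearing brains Ccr2 had 420.0 and 398 CPM in Cx3cr1-/- and 469.7 and 508 CPM in Cx3cr1+/- monocyte/macrophage-like cells (449 ± 49.5 over all 4). NK-like cells followed with 248 ± 48.9 CPM, T-like cells with 155 ± 15.2 CPM and the low-UMI class with 49.99 ± 29.5 CPM (n = 4 each), and no brain of one of these classes overlapped the next in the order. Microglia-like cells had 9.78 ± 5.42 CPM and Krt8-high cells 0.78 ± 0.98 CPM (n = 4 each). In naive brains Ccr2 was at 430.2 ± 64.7 CPM in the neutrophil and monocyte mix and 411 ± 39.7 CPM in the antigen-presenting mix (n = 3 each), which overlapped, and T/NK-like cells lay below both at 269 ± 44.5 CPM (n = 4). Naive microglia-like cells had 4.28 ± 0.89 CPM (n = 4).

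Among the 3 gate groups of T-like cells compared in metastasis-bearing brains, Ccr2 was lowest in the cells the authors gated as CD8+ by antibody. CD4+ gated cells had 157 and 138 CPM in Cx3cr1-/- brains and 215 and 123 CPM in Cx3cr1+/- brains, against 68.2 and 90.5 CPM and 85.9 and 63.2 CPM in CD8+ gated cells. The gates did not overlap, and the difference of 0.93 (SE 0.16) on the log2(CPM + 10) scale passed limma with brain as a block (adjusted p = 0.0036, higher in 4 of 4 brains), in a comparison where 6.19% of the 6473 genes tested were called and 4.08% were called higher. The call was lost with no variance trend (adjusted p = 0.068). Another group of T-like cells had a gate label that names neither CD4 nor CD8, which was read here as neither gate. The CD4+, CD8+ and neither groups held 250, 222 and 450 of 1201 T-like cells, and the remaining T-like cells were not compared. T-like cells read as in neither gate had 182 and 139.9 CPM in Cx3cr1-/- and 117 and 237 CPM in Cx3cr1+/- brains. They too lay above the CD8+ gated cells (1.01, SE 0.22, adjusted p = 0.020 by limma, 4 of 4 brains), where 7.52% of 6486 genes were called and 4.93% called higher. That call was lost without Cx3cr1-/- brain 1, Cx3cr1-/- brain 2 or Cx3cr1+/- brain 2 (adjusted p = 0.15, 0.066 and 0.097), and also with no filter, with no variance trend and at 5000 to 15000 raw UMIs (adjusted p = 0.13, 0.12 and 0.061). Cells in neither gate did not pass against CD4+ gated cells (0.073, adjusted p = 0.92; 3.83% of 6523 genes called). Depth and other markers moved with the gates. Brain medians were 4485 to 5791 raw UMIs in CD4+ gated cells, 5079 to 5153 in cells of neither gate and 5364 to 8579 in CD8+ gated cells. NK markers summed to 53.7 to 58.5 CPM in CD4+ against 253 to 1396 CPM in CD8+ gated cells. The 5 genes Ly6c2, Ms4a7, Chil3, Plac8 and Ms4a4c, called monocyte genes here, summed to 146 to 920 CPM against 988 to 2580 CPM. The 9 monocyte/macrophage markers other than Ccr2, which include these 5, summed to 437 to 1148 CPM in CD4+ and 1159 to 2745 CPM in CD8+ gated cells. In monocyte/macrophage-like cells those 9 summed to 22864 to 26437 CPM. Their part in the result was not tested, and these 3 comparisons were added after seeing the data. Of the lists of related genes, the chemokine genes Ccl5 (-2.38) and Ccl3 (-2.77) and the lymph node homing receptor Ccr7 (-0.76) were lower in CD4+ than in CD8+ gated cells, being 2 of 5 chemokines and 1 of 3 receptors tested. Of 17 signalling and control genes 5 were higher and none lower. The G protein subunits Gnai2 (0.53) and Gnb2 (0.52) and the NF-kB pathway genes Nfkbia (0.75) and Nfkb1 (0.68) were among them, as was Zfp36 (0.65), which encodes a protein that destabilises cytokine transcripts.

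Monocyte/macrophage-like cells that the authors gated as Ly6C high by antibody carried more Ccl2 and more Ccr2 than those gated Ly6C low. Ly6C is the surface marker that separates inflammatory from patrolling monocytes in the mouse. Ccl2 had 1538 and 1796 CPM in Cx3cr1-/- and 1403 and 1919 CPM in Cx3cr1+/- Ly6C high cells, against 559.6 and 751 CPM and 576 and 694 CPM in Ly6C low cells. Every Ly6C high value lay above every Ly6C low value. The difference was 1.35 (SE 0.06) on the log2 scale with brain as a block (limma, adjusted p = 4.44e-07, 4 of 4 brains), in a comparison where 20.4% of 6792 genes were called, 646 of them (9.51%) higher and 741 lower in Ly6C high cells. With median-ratio scaling 820 were higher and 470 lower. Ccr2 had 530.4 and 468 CPM in Cx3cr1-/- and 653 and 687 CPM in Cx3cr1+/- Ly6C high cells, against 351 and 336 CPM and 338 and 415 CPM in Ly6C low cells (0.67, SE 0.08, limma adjusted p = 0.00026, 4 of 4 brains). The gates were of like depth, with brain medians of 10593.5 to 13048 raw UMIs in 702 Ly6C high cells and 11259.5 to 12057.5 in 594 Ly6C low cells.

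The other 3 ligands did not pass between the Ly6C gates. Ccl7 differed by 0.42 (adjusted p = 0.090), Ccl8 by 0.71 (adjusted p = 0.14) and Ccl12 by 0.38 (adjusted p = 0.27), each higher in 3 of 4 brains by limma. Single brains set these calls: Ccl7 passed without Cx3cr1-/- brain 1 (0.67, adjusted p = 0.0066), Ccl8 without Cx3cr1+/- brain 2 (1.19, adjusted p = 0.0071) and Ccl12 without Cx3cr1+/- brain 1 (0.63, adjusted p = 0.037), while Ccl12 was at -0.015 without Cx3cr1-/- brain 2. At 5000 to 15000 raw UMIs, 4 of the 5 genes passed. The share of all genes called in that window is not reported here, so that count is not read as a result about the members. Of 5 other CC chemokine genes tested, 4 were higher in Ly6C high cells (Ccl6 1.06, Ccl9 0.89, Ccl3 0.42, Ccl4 0.42), with a median of 0.42 against -0.04 over all genes. Of 4 other receptor genes 3 were higher, among them Ccr1 (1.12) and the chemerin-binding receptor Ccrl2 (0.56), with a median of 0.43. Of 19 genes of Ccr2 signalling and ligand control 4 were higher (Nfkbia 0.53, Zc3h12a 0.41, Zfp36 0.27, Irf7 0.23) and 3 lower, the protease genes Dpp4 (-0.97) and Mmp14 (-0.45), whose products cleave chemokines, and Arrb2 (-0.37), an arrestin. Dendritic cell markers moved with the gate as well, summing to 876 to 2360 CPM in Ly6C high against 3793 to 6709 CPM in Ly6C low cells. The 5 monocyte genes Ly6c2, Ms4a7, Chil3, Plac8 and Ms4a4c summed to 8998 to 13264 CPM against 4029 to 6679 CPM. Their part in the result was not tested, and this comparison was added after seeing the data.

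**Figure D4:**
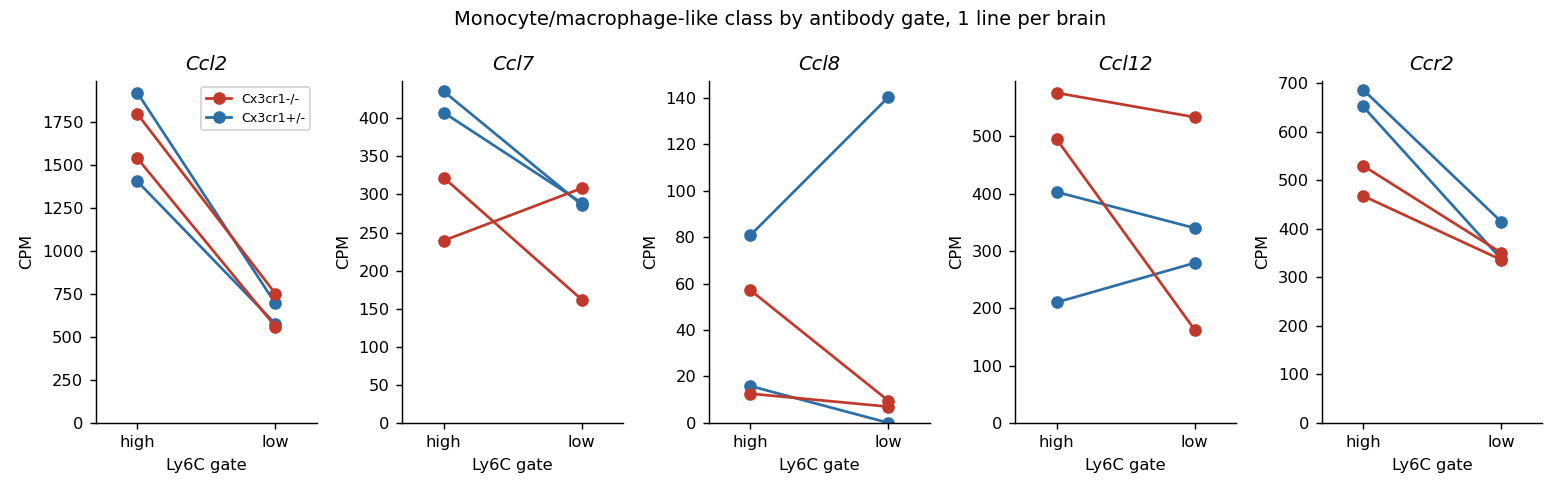
Level (vertical axis, CPM) of each of the 5 genes in Ly6C high (left) and Ly6C low (right) gated cells of the monocyte/macrophage-like class, 1 line per metastasis-bearing brain. All 4 lines for Ccl2 and for Ccr2 are higher at the Ly6C high end, and 3 of 4 are for Ccl7, Ccl8 and Ccl12.

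Microglia-like cells carried more Ccl2, Ccl7 and Ccl12 in metastasis-bearing than in naive brains, set side by side. Ccl2 averaged 739.9 ± 307 CPM in metastasis-bearing and 104 ± 34.2 CPM in naive brains, Ccl7 71.3 ± 23.4 and 13.1 ± 4.08 CPM, and Ccl12 1285 ± 575 and 349.7 ± 101 CPM (SD, n = 4 each). For these 3 genes every metastasis-bearing brain lay above every naive brain, and no test was made between the separately corrected tables. Ccr2 was low in both, at 9.78 ± 5.42 and 4.28 ± 0.89 CPM, and so was Ccl8, at 2.19 ± 2.95 and 2.45 ± 0.78 CPM. The metastasis-bearing microglia-like cells also held more of the 5 monocyte genes, which summed to 277 and 206 CPM in Cx3cr1-/- and 61.8 and 173 CPM in Cx3cr1+/- brains, against 35.3 to 47.2 CPM in naive brains. Other markers moved with the state as well. T markers summed to 20.5 to 226 CPM in metastasis-bearing against 8.21 to 18.7 CPM in naive microglia-like cells, NK markers to 10.8 to 256 against 5.19 to 9.28 CPM, neutrophil markers to 117 to 1074 against 185 to 266 CPM, and the microglia markers to 11237 to 12593.5 against 15540 to 17561 CPM. Their part in the result was not tested. The microglia-like cells with no UMI of any of the 5 monocyte genes were a subset chosen after seeing the data. They numbered 449 in metastasis-bearing and 955 in naive brains. Over them Ccl2 was at 651 ± 324 CPM against 97.2 CPM, Ccl12 at 937 ± 355 CPM against 339 CPM and Ccl7 at 47.2 CPM against 13.9 CPM in naive brains.

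Between genotypes, the 3 ligands measured in metastasis-bearing microglia-like cells were all higher in Cx3cr1-/- than in Cx3cr1+/- brains, and none passed after adjustment over all genes. Ccl12 had 1777 and 1738 CPM in Cx3cr1-/- brains against 589.8 and 1036 CPM in Cx3cr1+/- brains. Ccl2 had 1091 and 857 CPM against 372 and 639 CPM, and Ccl7 92.0 and 89.8 CPM against 44.7 and 58.7 CPM. The genotypes did not overlap for any of the 3, as was so for 40.6% of the 7374 genes tested. The log2 differences were 1.16 (SE 0.23, adjusted p = 0.21) for Ccl12, 0.97 (SE 0.24, adjusted p = 0.34) for Ccl2 and 0.72 (SE 0.18, adjusted p = 0.34) for Ccl7 by limma, in a comparison that called 6 genes or 0.0814%. At an unadjusted p under 0.05 all 3 passed (0.0013, 0.0044 and 0.0047), as did 8.61% of all genes, and Ccl12 was at rank 45 of 7374. The Cx3cr1-/- brains rested on 85 and 35 microglia-like cells and the Cx3cr1+/- brains on 390 and 144, and Ccl8 and Ccr2 were under the filter of 10 CPM. Median depth in these cells was 12596 and 8335 raw UMIs in Cx3cr1-/- against 7850.5 and 8928.5 in Cx3cr1+/- brains. The part of depth in the differences was not tested beyond the depth window below. The share of cells with a Ccl12 UMI overlapped between genotypes, at 91.8% and 74.3% in Cx3cr1-/- and 66.9% and 78.5% in Cx3cr1+/- brains. The exact permutation p was 0.667 for that share, and 2 brains against 2 cannot go below 0.333. Shares did not overlap for Ccl2, at 63.5% and 60% in Cx3cr1-/- against 44.1% and 54.2% in Cx3cr1+/- brains. For Ccl7 they did not overlap either, at 18.8% and 14.3% against 10% and 12.5% (exact permutation p = 0.333 for each gene). Calls depended on single brains and sizes on the cells taken. Ccl12 passed without Cx3cr1+/- brain 1 (0.76, adjusted p = 0.021), and Ccl12 (1.56, adjusted p = 3.44e-12) and Ccl2 (1.35, adjusted p = 1.93e-07) passed without Cx3cr1+/- brain 2, by limma with the lone Cx3cr1+/- brain assumed to vary like the others. At 5000 to 15000 raw UMIs the differences were 0.59 for Ccl12 (adjusted p = 0.87) and 0.29 for Ccl2 (adjusted p = 0.89), and in the authors' antibody gate 0.48 for Ccl12 (adjusted p = 0.62) and 0.62 for Ccl2 (adjusted p = 0.60). The 5 monocyte genes differed between the same brains, as given above, and their part in the result was not tested. In the cells with no UMI of those genes the levels of Ccl12 were 1166 and 1244 CPM in Cx3cr1-/- against 459 and 880 CPM in Cx3cr1+/- brains, and those of Ccl2 664 and 1092 CPM against 331 and 515 CPM. This subset held 449 of the 654 microglia-like cells, with at least 20 per brain. Neither Ccl12 nor Ccl2 passed by limma in the fit over it.

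Naive microglia-like cells did not show the same order. Ccl12 had 201 and 428 CPM in Cx3cr1-/- against 394 and 375 CPM in Cx3cr1+/- brains, and Ccl2 66.7 and 149.5 CPM against 96.5 and 104.97 CPM, so the genotypes overlapped for both, while 37.2% of genes did not overlap. Limma gave -0.38 for Ccl12 (adjusted p = 0.49), -0.0004 for Ccl2 (adjusted p = 1.00) and -0.29 for Ccl7 (adjusted p = 0.72), with 0.572% of 7693 genes called. At an unadjusted p under 0.05 1 of these 3 passed, Ccl12, as did 8.51% of all genes. Both Cx3cr1-/- brains set these values: without brain 1 Ccl12 was at 0.15 and Ccl2 at 0.53 (adjusted p = 0.044), and without brain 2 Ccl12 was at -0.90 (adjusted p = 6.38e-05), while without Cx3cr1+/- brain 2 Ccl12 was at -0.41 (adjusted p = 0.021). Each of these fits has 1 genotype with a lone brain, assumed to vary like the others. The test of whether the genotype difference itself differed between the states gave 1.53 for Ccl12 (SE 0.40, adjusted p = 0.40), 0.97 for Ccl2 (adjusted p = 0.57) and 1.01 for Ccl7 (adjusted p = 0.43) by limma. It called 0.0142% of 7065 genes, and at an unadjusted p under 0.05 all 3 passed, as did 8.44% of all genes. Ccl12 passed that test without metastasis-bearing Cx3cr1-/- brain 1 (1.52, adjusted p = 0.029) or brain 2 (1.55, adjusted p = 0.034), again with a lone brain in 1 arm. At 5000 to 15000 raw UMIs that difference was 1.02 for Ccl12 and 0.13 for Ccl2 (adjusted p = 0.83 and 0.98), and in the authors' gate 0.81 for Ccl12 and 0.65 for Ccl2 (adjusted p = 0.63 and 0.68). Without naive Cx3cr1-/- brain 1 it was 1.01 for Ccl12 and 0.44 for Ccl2, without naive Cx3cr1-/- brain 2 Ccl2 was at 1.5002, and without metastasis-bearing Cx3cr1+/- brain 1 Ccl2 was at 0.59.

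**Figure D5:**
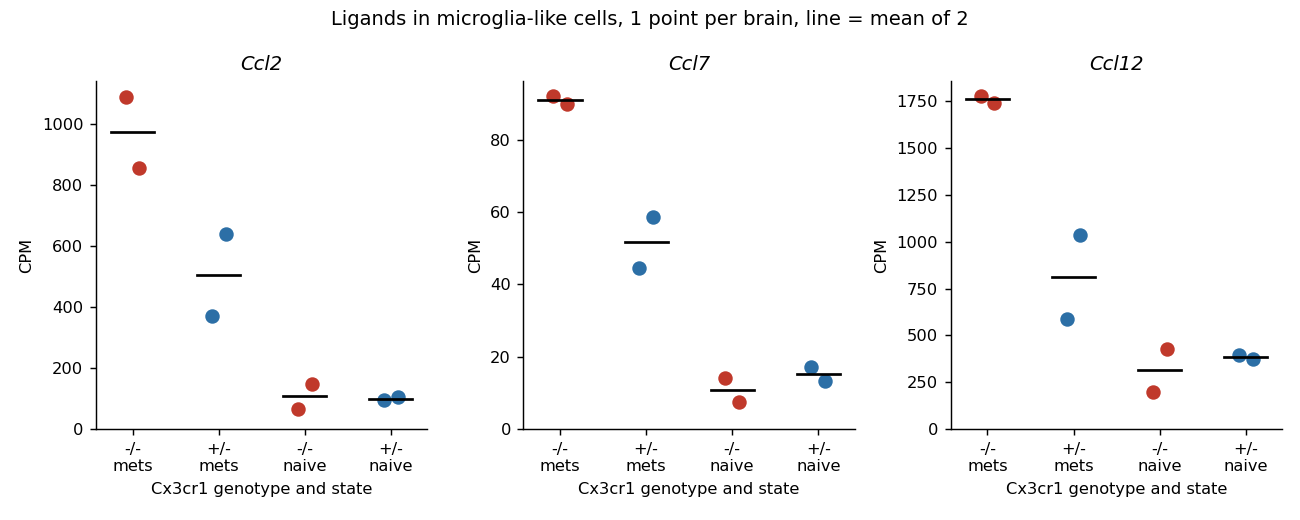
Level (vertical axis, CPM) of Ccl2, Ccl7 and Ccl12 in microglia-like cells, 1 point per brain and a line at the mean of each group of 2 brains. The groups stand in the order metastasis-bearing Cx3cr1-/-, metastasis-bearing Cx3cr1+/-, naive Cx3cr1-/-, naive Cx3cr1+/-. For Ccl12 the metastasis-bearing Cx3cr1-/- brains are at 1777 and 1738 CPM and the Cx3cr1+/- brains at 589.8 and 1036 CPM, all above the naive maximum of 428 CPM.

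In monocyte/macrophage-like cells none of the 5 genes passed between genotypes by limma. The log2 differences of Cx3cr1-/- over Cx3cr1+/- brains were -0.046 for Ccl2 (adjusted p = 0.98), -0.40 for Ccl7 (adjusted p = 0.40), -0.82 for Ccl8 (adjusted p = 0.89), 0.21 for Ccl12 (adjusted p = 0.89) and -0.25 for Ccr2 (adjusted p = 0.67). This comparison called 0.0143% of 6980 genes. At an unadjusted p under 0.05 1 of the 5 passed, Ccl7, as did 7.66% of all genes. Ccl7 and Ccr2 were lower in both Cx3cr1-/- brains than in either Cx3cr1+/- brain, while Ccl2, Ccl8 and Ccl12 overlapped; 36.7% of all genes did not overlap. Ccl8 turned to 0.37 without Cx3cr1+/- brain 2, the brain with the cell of 234 UMIs.

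The other classes gave no call for the members either. In Krt8-high cells Ccl2 differed by -0.68 (adjusted p = 0.78; 0.025% of 8011 genes called) and Ccl7 by -0.21 by limma, and Ccl2 alone passed at an unadjusted p under 0.05, as did 5.99% of genes. Ccr2 differed by 0.11 in NK-like cells (adjusted p = 0.97; 0.0476% of 6299 genes called) and by -0.23 in T-like cells (adjusted p = 0.97; 0% of 6524 genes called, 4.55% at an unadjusted p under 0.05), and no member passed unadjusted in either (4.03% of all genes did in NK-like cells). In vascular-like cells 3 members were tested and none passed even unadjusted (0% of 8896 genes called, 10.3% unadjusted). In naive T/NK-like cells Ccl12 had 67.5 and 157 CPM in Cx3cr1-/- against 32.1 and 18.4 CPM in Cx3cr1+/- brains (1.72, SE 0.35, limma adjusted p = 0.059; 0.215% of 7453 genes called). At an unadjusted p under 0.05 Ccl12 alone of 4 members passed there, as did 5.47% of all genes. Microglia markers summed to 620 to 1501 CPM in these T/NK-like cells and border-associated macrophage markers to 301 CPM in Cx3cr1-/- brain 1 against 2.01 to 16.1 CPM in the other 3 brains, and their part in the result was not tested.

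The related genes were counted by list in the genotype comparisons. In metastasis-bearing microglia-like cells 0 of 5 other CC chemokines, 0 of 4 receptors and 0 of 18 signalling and control genes passed by limma, with 2, 1 and 5 at an unadjusted p under 0.05, as 8.61% of all genes. Their median differences were 0.35, 0.11 and -0.09, against 0.01 over all genes. The chemokines with the smallest p were Ccl9 (0.29), Ccl3 (0.35), Ccl4 (0.46) and Ccl6 (0.56), and the interferon-induced factor Irf7 stood at 1.17 (adjusted p = 0.15). In naive microglia-like cells Ccl9 alone passed, with 62.3 and 64.2 CPM in Cx3cr1-/- against 97.6 and 91.1 CPM in Cx3cr1+/- brains (-0.51, adjusted p = 0.029), where 0.572% of all genes were called. In monocyte/macrophage-like cells 0 of 5, 0 of 5 and 0 of 19 passed (2, 2 and 2 unadjusted, as 7.66% of all genes), and in NK-like cells 1 chemokine did, Ccl4 (0.85, adjusted p = 0.022), where 0.0476% of all genes were called.

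The genes most like each member across the 9 authors' clusters of the metastasis table with enough cells were ranked by Pearson's r over 11389 genes, as a description. Ccl2 was most like Ctsb (0.97), Pak1 (0.97), Plau (0.96), Ifnb1 (0.96) and Grn (0.95), with Ccl7 at 0.94, Ccl12 at 0.82 and Ccr2 at 0.05. For Ccl7 the closest were Fkbp1b (0.94), Ifnb1, Wdr41, Ccl2 and Tmem106a (0.92). Ccl12 was closest to the microglia genes C1qc (0.99), Slc7a8 and Trem2, followed by Cds1 and Amz1. Ccl8 was closest to Hpse (0.99), Atp2a1, Cd300e, 4930455G09Rik and Adgre4, and Ccr2 to Runx3 (0.95), Dok2, Slamf7, Crybg1 and Psme2 (0.92). The 9 points share 1 pooled preparation, and the Ccl2 ranking includes the shallow clusters described above. Some named genes peaked little above the filter, among them Atp2a1 (10.2 CPM), Ifnb1 (12.7), Wdr41 (14.8), 4930455G09Rik (15.8) and Fkbp1b (17.4). A gene that passed the filter only through clusters rich in a member tends to rank high for it. These ranks are therefore not read as support for a link between genes.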

How the data were processed

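Per the labels, 8 brains were stained, hashtagged, pooled and sequenced as 10x 3' v3 libraries. Cell Ranger 3.1, Seurat 3.1.1 and mm10 are named in the submitters' processing notes. The authors deposited the natural log of 1 plus a depth-corrected UMI count per gene and cell, corrected separately in each table, and its exponential minus 1 was whole for 100% of values, within a relative tolerance of 1e-06. The deposited raw UMI count per cell, clusters, hashtags and antibody gates were used as given. The neither gate of T-like cells was read from a label that names neither CD4 nor CD8. No doublet caller was run. Classes are the authors' clusters named by markers.

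Corrected UMIs were summed per brain and class (at least 20 cells), scaled to CPM and tested as log2(CPM + 10) with limma 3.58.1 (trend, R 4.3.3) over genes above a mean of 10 CPM. P-values were adjusted by Benjamini-Hochberg over all genes tested, with a threshold of 0.05. Genotype fits used 2 brains against 2; gate fits had brain as a block. Members, lists and the rule for named genes (members, Cx3cr1, the 5 most alike genes per member, and list genes past the threshold or the 4 with the smallest p) were chosen with earlier results of these data known. The genotype fit was run on simulated data, whose range of levels was narrowed after earlier settings gave more false calls. Ccl12 in metastasis-bearing microglia-like cells and Ccl2 and Ccl8 in monocyte/macrophage-like cells lay outside that range. The simulation therefore says nothing on those fits, and its rates are not reported here. Intervals and thinning cover counting error only. Precision is limited by 2 brains a group and by 35 to 390 cells per metastasis-bearing brain in microglia-like cells. A gene of the lists is not reported here. Alternatives changed the pseudocount, filter, scaling, trend, cells, depth window, brains and block.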

Additional observations from a re-analysis of the deposited data

Results flagged for a closer look

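Among 56 sets of 4 brains tested for 1 brain far from the other 3, 8 had such a brain. The sets were not independent, since gated groups lie within their classes and the genes share brains. The count is therefore not set against a rate given by chance. Ccl12 in T-like cells of metastasis-bearing brains was at 31.6 CPM in Cx3cr1-/- brain 1 against 5.43 to 9.22 CPM in the others, and in CD4+ gated T-like cells that brain had 91.7 CPM against 7.997 to 20.1 CPM. In naive T/NK-like cells Cx3cr1-/- brain 1 had 126 CPM of Ccl2 against 34.4 to 36.1 CPM, and 138 CPM of Ccl7 against 2.01 to 13.8 CPM. Border-associated macrophage markers summed to 301 CPM in that brain and to 2.01 to 16.1 CPM in the other 3, and their part in the result was not tested. Ccl7 stood apart in NK-like cells of Cx3cr1+/- brain 1 (29.0 CPM against 3.999 to 5.15 CPM) and in vascular-like cells of Cx3cr1+/- brain 2 (4.08 CPM against 27.1 to 29.4 CPM). In Ly6C low gated cells Ccl7 was at 162 CPM in Cx3cr1-/- brain 2 against 286.5 to 308 CPM, and Ccl8 at 140 CPM in Cx3cr1+/- brain 2 against 0 to 9.57 CPM.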

How the results depend on the processing

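Of 527 recomputed values 448 kept their direction and their side of the threshold, or moved by less than the spread between brains. The class with the highest level was the same for each member in metastasis-bearing brains under the alternatives run. No paired analysis was possible because no label pairs brains across genotypes; without the replicate block the gate comparisons kept their calls for the members. Ccr2 alone was followed in the T-like gates, chosen after its values were seen.

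Differences that turned round with all brains kept were Ccl2 in naive microglia-like cells (0.018 with all deposited cells, 0.16 at 5000 to 15000 raw UMIs), Ccl12 in monocyte/macrophage-like cells (-0.51 in that depth window, -0.054 in Ly6C low cells), Ccl2 there (0.040 in the authors' gate, 0.018 in Ly6C high and 0.036 in Ly6C low cells) and Ccr2 in neither-gated against CD4+ cells (-0.030 with all deposited cells, -0.047 in the depth window). The cause was not tested. In naive T/NK-like cells 1 member passed with no filter and with all deposited cells. The share of all genes called in those fits is not reported here, so that count is not read as a result about the members. The depth window called 4 members between the Ly6C gates, and the share of all genes called in it is not reported here. Ccr2 in neither-gated against CD8+ cells did not pass with no filter, with no variance trend or in the depth window (adjusted p 0.13, 0.12 and 0.061; 0 called), nor did CD4+ against CD8+ with no trend (0.068; 0 called).

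Thinned to 2000 UMIs, the shares of cells in the highest class were 41.7% for Ccl2, 14.99% for Ccl7, 2.28% for Ccl8, 53.7% for Ccl12 and 50.2% for Ccr2, and 44.1% for naive Ccr2. The monocyte/macrophage-like share of UMIs was 43.0% for Ccl2, 55.7% for Ccl7 and 64.4% for Ccl8 over the deposited ln values, and 37.7% for Ccl2, 54.2% for Ccl7 and 83.8% for Ccr2 at raw depth. Naive shares at raw depth were 38.0% (Ccl12, microglia-like) and 62.4% (Ccr2, mix). With all deposited cells they were 61.3% (Ccl2), 67.8% (Ccl7), 75.3% (Ccl8) and 58.4% (Ccr2) for the mix and 40.8% for Ccl12 in microglia-like cells.

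Leaving out 1 brain at a time changed which members were called in metastasis-bearing and naive microglia-like cells and in Krt8-high cells (without Cx3cr1+/- brain 1). The same held in NK-like cells (without Cx3cr1+/- brain 2), in naive T/NK-like cells (without either Cx3cr1+/- brain) and for the interaction. Each of these fits leaves a lone brain in 1 arm, so their counts are not given. In the gate fits 2 to 3 members were called for Ly6C, 0 to 1 for neither against CD8+ and 1 to 2 for CD4+ against CD8+ (without Cx3cr1+/- brain 2). The counts are not read as results about the members. The share of all genes called is not reported here for fits with 1 brain left out. Log2 differences that turned round in some of these fits ran between -0.53 and 0.53 (Ccl2) and -0.90 and 0.15 (Ccl12) in naive microglia-like cells, between -0.22 and 0.13 (Ccl2), -2.01 and 0.37 (Ccl8) and -0.048 and 0.48 (Ccl12) in monocyte/macrophage-like cells, between -0.015 and 0.63 for Ccl12 by Ly6C, and between -0.20 and 0.37 for Ccr2 in neither-gated against CD4+ cells.

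Counts of genes called moved too: 0 to 88 in metastasis-bearing microglia-like cells (6 in the report), 2 to 56 in naive ones (44), 0 to 230 in monocyte/macrophage-like cells (1), 12 to 2150 in Krt8-high cells with a brain left out (2), 0 to 68 in naive T/NK-like cells (16), 0 to 920 in NK-like (3), 0 to 240 in T-like (0) and 0 to 169 in vascular-like cells (0), 0 to 313 for the interaction (1), 672 to 1438 by Ly6C (1387), 132 to 984 in neither-gated against CD8+ (488), 55 to 424 against CD4+ (250) and 106 to 401 in CD4+ against CD8+ cells (401). In microglia-like cells Ccl8 and Ccr2 were under the filter of 10 CPM and were not tested.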
